A study of Mus musculus with 12 samples.

Results

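The Zscan4 gene family was followed by RNA-seq in embryonic stem cells (ESCs) of the mouse that are androgenetic haploids, with a single set of chromosomes of paternal origin, over 12 libraries. Members were taken by symbol, Zscan4a to Zscan4f. Of these 6 symbols, 5 have a row among the 24421 symbols of each count table, and all 5 passed the filter on low counts in both tables. Zscan4e is not analysed here. All cells had a C57BL/6 background. The OdG groups were wild type (WT, 2 libraries) and Etl4 knockout (KO) line 1 and line 2 (2 libraries each). The EG1 groups were WT (3 libraries) and Etl4 KO (3 libraries). The labels give no treatment, time point or edited site, and a KO line here is 1 line of cells. The labels do not say that replicate libraries were separate cultures, and the spread behind each p-value may be technical. The study concerns a screen that found Etl4 loss to stabilise haploidy, per its title, and the comparisons below ask how the family differed between KO and WT in each parental line.

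Zscan4 genes encode nuclear proteins with a SCAN domain and zinc fingers. In the mouse embryo they are transcribed in a burst at the late 2-cell stage. In ESC cultures only a small and changing fraction of cells transcribes them at any moment, together with other genes of the 2-cell embryo, a condition known as the 2-cell-like state. The family is known for telomere lengthening by recombination and for genome stability in ESCs, and the double-homeobox factor Dux is a direct activator. In bulk RNA, more cells in the 2-cell-like state and more transcript per such cell cannot be told apart.

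The members lie in 1 tandem cluster on mouse chromosome 7 (GRCm38, equal to mm10, GENCODE M21), chr7:10794242-11402318, a span of 608 kb. In order they are Zscan4a (chr7:10794242-10799057, minus strand), Zscan4b (chr7:10900740-10905050, minus), Zscan4c (chr7:11005745-11010547, plus), Zscan4d (chr7:11161374-11166159, minus), Zscan4e (chr7:11306378-11310682, minus) and Zscan4f (chr7:11397915-11402318, plus). The longest transcript of each has 4 exons. Zscan4a is annotated as an unprocessed pseudogene in GENCODE and a transcribed pseudogene in RefSeq, whereas Zscan4b, Zscan4c, Zscan4d and Zscan4f are protein coding in both. The longest transcripts of the 6 copies were 96.6% to 99.7% identical pair by pair (median 97.6%), with Zscan4b and Zscan4e the closest pair and Zscan4c and Zscan4f next at 99.6%.

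How little separates the copies is seen in exon 2, which has 472 bases in every copy. Its coding part in Zscan4c has 375 bases, and 7 of those positions vary over the 6 copies. The 60 coding bases with the most variable positions are shown 5′ to 3′ on the gene's strand, with capitals at bases that differ from Zscan4c.
Zscan4a (chr7:10798161-10798220): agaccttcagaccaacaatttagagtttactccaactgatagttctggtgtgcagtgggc
Zscan4c (chr7:11006582-11006641): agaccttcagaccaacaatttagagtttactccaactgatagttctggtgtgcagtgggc
Zscan4d (chr7:11165263-11165322): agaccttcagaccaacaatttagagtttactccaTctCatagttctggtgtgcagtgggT
Zscan4b, Zscan4e and Zscan4f read the same as Zscan4c there, and the 3 Zscan4 pseudogene symbols of the cluster were not compared in this window. Over whole transcripts, the share of 150-base windows found without mismatch in another copy (members and those pseudogene symbols) was 13.0% for Zscan4d, 25.1% for Zscan4a, 61% for Zscan4c, 65.8% for Zscan4b and 86.2% for Zscan4f. With 50-base windows it was 49.6%, 63.6%, 85.5%, 87.9% and 93.7%. Read length and the treatment of reads that map to several copies were not given in the sources used here. Each copy's own value is therefore uncertain, and the sum over the 5 copies is given beside it.

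The upstream sequences show how alike the copies are before their annotated starts. Any part of these sequences in the levels below was not tested. Upstream sequences from RefSeq (GRCm38.p6) were at hand for 4 members, not for Zscan4a and Zscan4e. Upstream of each of the 4, the same 3 motif matches lay in the same order and spacing. The 117 bases shown were cut around these matches, from 30 bases before the first to 10 after the last. Capitals mark, from 5′ to 3′, a Dux-type match (TGATT, any base, then AATCA, with 1 mismatch allowed), a TATA match (TATAAA) and a CCAAT match, each searched on both strands and none overlapping another.
Zscan4b (chr7:10905055-10905171, minus): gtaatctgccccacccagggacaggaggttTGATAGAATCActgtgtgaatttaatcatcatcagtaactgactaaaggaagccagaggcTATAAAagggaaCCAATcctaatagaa
Zscan4c (chr7:11005601-11005717, plus): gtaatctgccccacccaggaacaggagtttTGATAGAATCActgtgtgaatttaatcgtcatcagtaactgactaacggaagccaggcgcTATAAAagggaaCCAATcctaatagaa
Zscan4d (chr7:11166187-11166303, minus): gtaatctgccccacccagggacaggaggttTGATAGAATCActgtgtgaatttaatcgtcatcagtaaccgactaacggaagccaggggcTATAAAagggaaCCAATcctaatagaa
Zscan4f (chr7:11397794-11397910, plus): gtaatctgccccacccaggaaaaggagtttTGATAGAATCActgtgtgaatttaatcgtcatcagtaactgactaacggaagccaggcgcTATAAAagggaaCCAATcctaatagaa
Of the 117 positions, 8 differed among the 4 copies, and Zscan4c and Zscan4f differed at 1. The stretch begins 121 bases before the annotated start of Zscan4b and Zscan4f, 144 before that of Zscan4c and 155 before that of Zscan4d. Among 32536 upstream windows of 250 bases in the RefSeq table, 0.649% held a Dux-type match with 1 mismatch allowed, 12.3% a TATA match and 33.8% a CCAAT match, against 4 of 4 Zscan4 windows for each. Those 4 windows were 94.7% to 99.6% identical pair by pair, so they are not separate cases. The exact Dux-type letters were in 0.0307% of all windows and in 0 of the 4 Zscan4 windows. These matches describe letters, not bound sites.

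Total counts ran from 16110028 to 19706599 per library, and the family rested on 65 to 2431 counts per library. CPM are counts scaled to the library's TMM-adjusted total. Before the TMM adjustment, a level of 1 CPM stood for about 16.1 to 19.7 counts. As a check of the labels, Etl4 was at 208 ± 3.21 CPM in OdG WT, 99.1 ± 2.69 in line 1 and 112 ± 3.25 in line 2 (SD, n = 2 each), and at 263 ± 2.75 in EG1 WT and 132 ± 1.34 in EG1 KO (SD, n = 3 each). All 7 defining ESC markers were detected in every group. Summed over 10 fibroblast markers, levels were 54.7 to 57.3 CPM in OdG WT, 44.5 to 47.7 in line 1, 22.5 to 23.6 in line 2, 12.5 to 14.4 in EG1 WT and 14.4 to 16.8 in EG1 KO. Postn and Lum were at 0 in line 1 and in both EG1 groups, Col3a1 in line 1 and EG1 KO, and Dcn in both EG1 groups. Summed over 6 trophoblast markers, levels were 194 to 195 CPM in OdG WT, 243 to 246 in line 1, 139 to 149 in line 2, 12 to 13.6 in EG1 WT and 17.2 to 20.5 in EG1 KO, with none of the 6 at 0 in a whole group. Over 7 primitive endoderm markers they were 6.96 to 12.8 CPM in all groups. Over 4 germ cell markers they were 51.4 to 67.6 CPM in OdG WT, 40.4 to 43.5 in line 1, 138 to 143 in line 2 and 125 to 139 over the EG1 libraries. The part of these other cell types in the Zscan4 differences was not tested.

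Zscan4 transcripts were rare in OdG WT cells, more abundant in OdG KO line 2, and most abundant in EG1 WT. All 5 members were called higher in OdG KO line 2, and lower in EG1 KO, than in their own WT. Over all genes tested, 30% were called higher in line 2 and 4.06% lower in EG1 KO. Calls on copies that can share reads are not independent, and in the OdG table Zscan4b passed the filter through line 2 alone. The family sum was 3.77 and 4.57 CPM in the OdG WT libraries, 6.69 and 6.6 in line 1, and 24.7 and 23.4 in line 2. The sum was 115, 121 and 123 CPM in EG1 WT and 64.6, 61.4 and 61.9 in EG1 KO. From lowest to highest, the groups were OdG WT, line 1, line 2, EG1 KO and EG1 WT, and the libraries of neighbouring groups did not overlap in the family sum. CPM was scaled within each table, and with all 12 libraries scaled together the means were 4.14 ± 0.561, 6.59 ± 0.045, 23.7 ± 0.958, 63.2 ± 1.66 and 121 ± 4.04 CPM in the same order (SD, n = 2 for OdG groups and 3 for EG1 groups). The step from line 2 to EG1 KO was not tested.

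**Figure D1:**
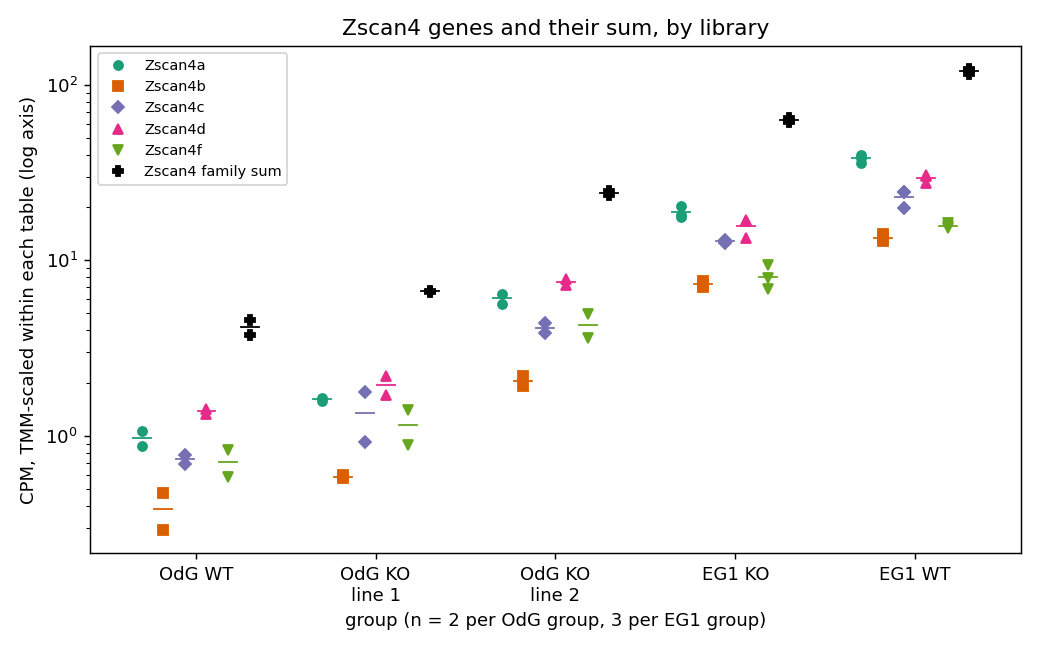
Each point is 1 library and each short line a group mean, with TMM-scaled CPM on a log axis against the 5 groups, for the 5 Zscan4 genes and their sum. The sum lies between 3.77 and 4.57 CPM in OdG WT and between 115 and 123 CPM in EG1 WT, and every gene follows the same order of groups by its mean.

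In OdG KO line 1 the family sum was 1.6 times that of OdG WT (log2 0.67 ± 0.15, edgeR estimate ± SE), and no single member passed the test. Of the 5 members, 0 were called at an adjusted p under 0.05 by edgeR's quasi-likelihood test, 2 had an unadjusted p under 0.05, and DESeq2 called 0. Over all genes tested, 52.8% were called in this comparison, 26.8% higher and 26.1% lower. All 4 line 1 and WT libraries were low. Zscan4a, the pseudogene copy, had 15 and 18 counts in WT against 29 and 26 in line 1 (log2 0.73 ± 0.30, edgeR adjusted p = 0.052). Zscan4c, known as the main copy in ESCs, had 12 and 13 counts against 17 and 28 (log2 0.85 ± 0.39, edgeR adjusted p = 0.077). The adjusted p of the other members was 0.12 for Zscan4d, 0.14 for Zscan4f and 0.33 for Zscan4b by edgeR. The ranges of the 2 groups did not overlap for any of the 5 members, with line 1 on the higher side. Over all genes tested, 36.8% lay apart in that direction, and copies that share reads are not independent of each other. Some settings changed these calls: without the filter on low counts edgeR called Zscan4a and Zscan4c (adjusted p = 0.0498 and 0.0464), without line 1 replicate 1 it called Zscan4c alone (adjusted p = 0.019), and in 1 fit over all 12 libraries it called Zscan4a alone (adjusted p = 0.0443).

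In OdG KO line 2 all 5 members rose, to between 5.29 and 6.22 times OdG WT (edgeR adjusted p from 1.5e-08 to 4.8e-05), where 59.9% of all genes tested were called, 30% higher and 29.8% lower. Zscan4d, known as the main copy of the 2-cell embryo, had 119 and 139 counts against 23 and 24 in WT. In CPM, Zscan4d was at 7.26 and 7.81 against 1.33 and 1.42 (log2 2.45 ± 0.20, edgeR adjusted p = 1.5e-08). Zscan4a was at 6.46 and 5.67 CPM against 0.869 and 1.07 (log2 2.64 ± 0.24, edgeR adjusted p = 3.4e-08). For both genes every line 2 library was far above every WT library. Over all genes tested, 39.1% lay apart with line 2 higher. Zscan4c was at 3.84 and 4.38 CPM against 0.695 and 0.772 (log2 2.48 ± 0.31, edgeR adjusted p = 2.5e-06). Zscan4f was at 4.94 and 3.59 CPM against 0.580 and 0.831 (log2 2.58 ± 0.32, edgeR adjusted p = 1.8e-06). Zscan4b, the least abundant member, had 36 and 34 counts against 5 and 8 (log2 2.40 ± 0.39, edgeR adjusted p = 4.8e-05). Outside line 2, Zscan4b was too low in the OdG table to pass the filter on low counts. Its calls for line 2 are therefore not independent of that filter, though edgeR also called all 5 members without it. The 5 estimates lay within 0.24 of each other on the log2 scale, about as far as 1 SE of a single member, and the family sum stood at 5.76 times WT (log2 2.53 ± 0.12).

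Line 2 also exceeded line 1 at every member. The log2 differences ran from 1.63 ± 0.28 for Zscan4c to 1.94 ± 0.19 for Zscan4d, with edgeR adjusted p from 3.4e-07 to 0.00076. Of all genes tested, 37.8% were called there, 18.6% higher and 19.2% lower. The family sum of line 2 was 3.61 times that of line 1 (log2 1.85 ± 0.11). The difference of means here leaves out the WT libraries, which both lines share as their control. The filter, the scaling and the spread behind the SE and p-values came from all OdG libraries, WT included. With the lines averaged, all 5 members were called higher in OdG KO than in WT, with log2 values from 1.48 to 1.68, where 59.9% of all genes were called, 29.4% higher and 30.5% lower. When both lines were merged into 1 KO group of 4 libraries, which counts their difference as error, edgeR called 0 of the 5 (adjusted p from 0.0736 to 0.112) and the family sum was at log2 1.88 ± 0.67.

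In EG1 the direction was the other way: all 5 members fell in KO, to between 49.4% and 55.7% of WT (edgeR adjusted p from 2.1e-12 to 2.1e-07). In that comparison 7.66% of all genes tested were called, 4.06% lower and 3.6% higher. Zscan4a was at 35.9, 39.8 and 38.4 CPM in WT against 18.2, 20.5 and 17.7 in KO (log2 -1.02 ± 0.07, edgeR adjusted p = 2.1e-12). Zscan4d was at 30.6, 27.7 and 30.2 CPM against 17.0, 13.4 and 16.8 (log2 -0.91 ± 0.081, edgeR adjusted p = 1e-09). In both, the highest KO library lay well below the lowest WT library. Zscan4c was at 19.9, 24.4 and 24.4 CPM against 12.7, 12.6 and 13.1 (log2 -0.84 ± 0.087, edgeR adjusted p = 1.7e-08). Zscan4f was at 15.2, 16.3 and 15.6 CPM against 9.46, 7.89 and 6.82 (log2 -0.96 ± 0.11, edgeR adjusted p = 6.6e-08). Zscan4b was at 13.4, 12.8 and 14.1 CPM against 7.24, 7.04 and 7.57 (log2 -0.89 ± 0.10, edgeR adjusted p = 2.1e-07). No member's WT and KO ranges overlapped, where 12.5% of all genes tested lay apart with KO lower. The family sum of KO was 52.4% of WT (log2 -0.93 ± 0.044). Among the 14016 genes tested in EG1, ordered by the absolute log2 fold change, Zscan4a stood at place 84, Zscan4f at 107, Zscan4d at 136, Zscan4b at 160 and Zscan4c at 193, near Etl4 itself at 93.

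**Figure D2:**
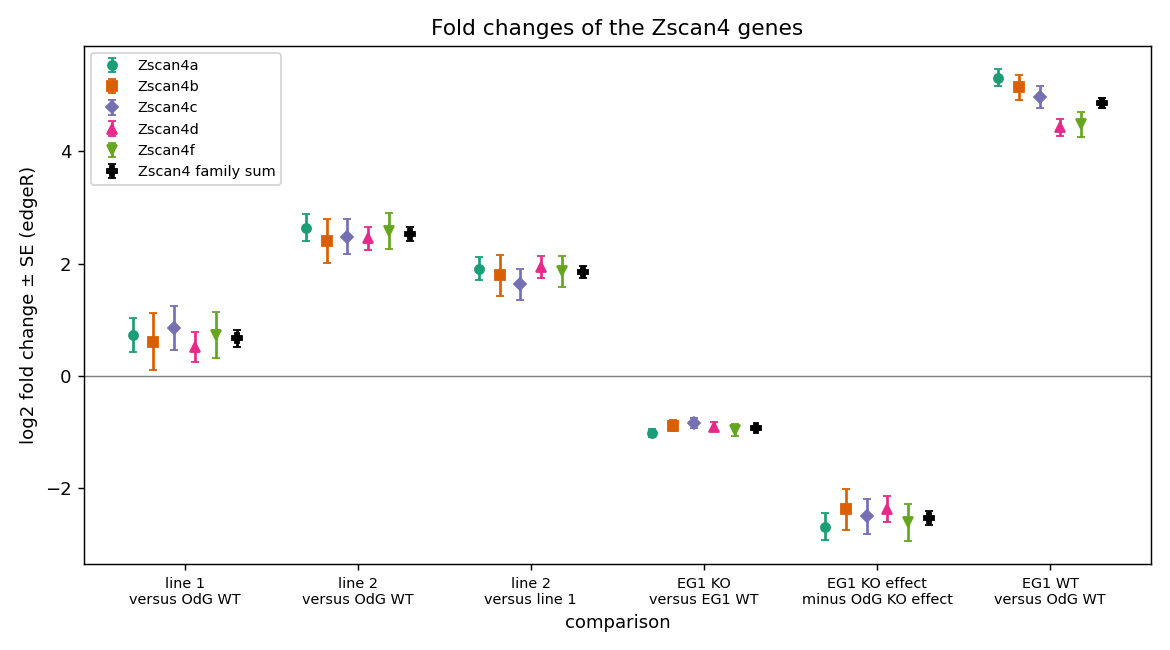
Points are edgeR log2 fold changes and bars ± 1 SE, for the 5 Zscan4 genes and their sum, in 6 comparisons. All members lie above 0 for line 2 versus OdG WT (2.40 to 2.64) and below 0 for EG1 KO versus EG1 WT (-1.02 to -0.84), and the members stay close together except in EG1 WT versus OdG WT.

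The KO effect differed between EG1 and the OdG lines measured, by the test of the difference itself. That test uses the spread between libraries of a group, not between KO lines, and EG1 has 1 KO line. Parental line and individual KO line therefore cannot be told apart here. The EG1 effect minus the OdG effect (mean of both lines) was between log2 -2.69 ± 0.24 for Zscan4a and -2.38 ± 0.37 for Zscan4b, with Zscan4d at -2.38 ± 0.23. All 5 members were called lower (edgeR interaction test in 1 fit over 12 libraries, adjusted p from 2.3e-10 to 5.5e-06), where 39.8% of all genes were called, 20.2% lower and 19.5% higher. Set against line 1 alone, an alternative chosen after seeing the data, the difference was smaller but still called for all 5, from log2 -1.74 for Zscan4a to -1.41 for Zscan4d (edgeR adjusted p from 4.72e-05 to 0.015). Set against line 2 alone it was from -3.64 for Zscan4a to -3.28 for Zscan4b (edgeR adjusted p at most 6.24e-09). Both EG1 groups remained above every OdG group in level.

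The parental lines themselves were far apart. EG1 WT held 29.1 times the family sum of OdG WT (log2 4.86 ± 0.084), and all 5 members were called higher (edgeR adjusted p from 5.9e-24 to 8.1e-18), where 70.3% of all genes were called, 35% higher and 35.4% lower. Here the estimates of the members lay farther apart, a spread that was not tested. Zscan4a, Zscan4b and Zscan4c were 39.6, 35.2 and 31.4 times higher (log2 5.31 ± 0.15, 5.14 ± 0.22 and 4.97 ± 0.19), against 21.6 times for Zscan4d and 22.4 times for Zscan4f (log2 4.43 ± 0.15 and 4.48 ± 0.22). Parental line and count table coincide in this comparison and cannot be told apart.

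The make-up of the family counts differed between the parental lines in range. Zscan4d was the most counted copy in 5 of the 6 OdG libraries and Zscan4a in all 6 EG1 libraries. The share of the family counts taken by Zscan4d was 31.2% and 35.4% in OdG WT, 26.0% and 32.5% in line 1 and 29.4% and 33.4% in line 2, against 22.9% to 26.6% in EG1 WT and 21.8% to 27.1% in EG1 KO. The share of Zscan4a was 23.1% to 26.2% over the 6 OdG libraries, 31.2% to 32.9% in EG1 WT and 28.2% to 33.4% in EG1 KO, so Zscan4a shares of the 2 parental lines did not overlap. Pooled over libraries, Zscan4a took 25.2% of 821 family counts in line 2 (Wilson 95% interval 22.4 to 28.3). In EG1 WT it took 31.8% of 6637 (30.7 to 32.9). The intervals were 17.1 to 30.8 in OdG WT, 19.1 to 30.2 in line 1 and 28.5 to 31.6 in EG1 KO. Those of OdG WT and line 1 overlapped that of EG1 KO, and that of OdG WT also overlapped that of EG1 WT. The intervals cover counting error only, and PCR copies are not independent molecules. Within a parent the shares of KO and WT overlapped or lay close: Zscan4c took 17.7% ± 1.12 in OdG WT and 17.2% ± 2.26 in line 2 (SD, n = 2). In EG1 it took 19.1% ± 1.58 of the WT and 20.4% ± 0.71 of the KO counts (SD, n = 3). Zscan4b took 7.69% to 10.4% over the OdG libraries and 10.6% to 12.2% over the EG1 libraries. Shares were compared by their ranges and not tested.

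**Figure D3:**
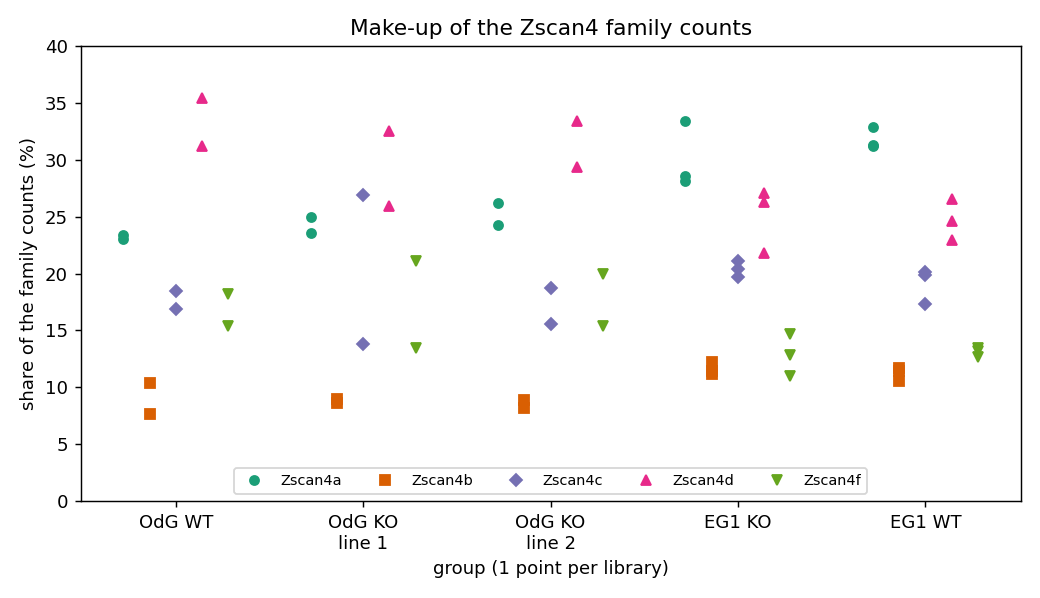
Each point is the percentage of 1 library's Zscan4 counts that fell on 1 copy, by group. Zscan4a lies between 23.1% and 26.2% in the OdG libraries and between 28.2% and 33.4% in the EG1 libraries, while Zscan4d lies between 26.0% and 35.4% in OdG and between 21.8% and 27.1% in EG1.

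Per kilobase of annotated exon, the order of the copies within EG1 WT was Zscan4a (16.8 ± 0.867 CPM per kb), Zscan4d (13.1 ± 0.707), Zscan4c (10.1 ± 1.14), Zscan4f (8.07 ± 0.284) and Zscan4b (7.53 ± 0.361; SD, n = 3). In line 2 it was Zscan4d (3.27 ± 0.165), Zscan4a (2.63 ± 0.245), Zscan4f (2.15 ± 0.48), Zscan4c (1.78 ± 0.162) and Zscan4b (1.12 ± 0.114; SD, n = 2). The levels of Zscan4f and Zscan4c in line 2, and of Zscan4f and Zscan4b in EG1 WT, were within about 1 to 2 SD of each other. RefSeq gives Zscan4d a shorter span, which holds 1992 of its 2272 exonic bases, and with that length its level was 14.9 ± 0.807 in EG1 WT and 3.73 ± 0.188 in line 2, which left both orders as they were. Zscan4d and Zscan4a are also the copies with the fewest windows shared with another copy. The part of shared reads in this order was not tested.

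The genes whose levels followed the family most closely were sought among 5601 genes outside it. Likeness was the root-mean-square difference in log2(CPM + 1) over the 12 libraries, each gene centred on its own mean. A value of 0 would be an identical pattern on that scale. Adding 1 shrinks fold changes at low CPM, so a gene near on this scale can still differ from the family in fold change. The nearest were the predicted genes Gm20767 (0.129) and Gm5662 (0.139), then BC080695 (0.203), Gm2016 (0.249), Gm5039 (0.311), Pramef25 (0.328), Gm13242 (0.335) and Gm13078 (0.335), against a median of 1.81 over the genes compared. The members themselves lay at 0.148 (Zscan4a) to 0.523 (Zscan4f) from their sum. These values do not show that a gene outside the family follows it better than a member does. By edgeR, Gm20767 was at log2 3.70 in line 2 versus OdG WT, against 2.53 for the family sum. In EG1 WT versus OdG WT, Gm20767 was at log2 6.08 against 4.86. Gm5662 was at 1.56 and 2.43 CPM in OdG WT, 3.30 and 3.43 in line 1 and 10.0 and 11.1 in line 2. In EG1 it ran from 58.2 to 59.2 CPM in WT and from 29.2 to 32.2 in KO. Gm13242 departed from the family in 1 group: it was at 44.0 ± 0.842 CPM in EG1 WT and 39.8 ± 3.75 in EG1 KO (SD, n = 3).

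**Figure D4:**
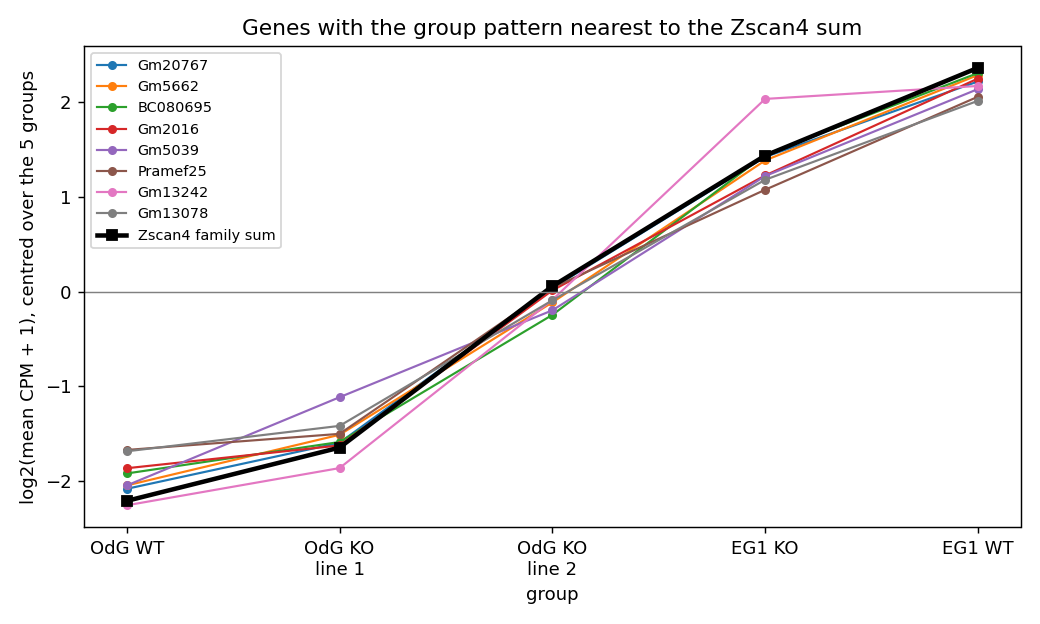
Lines join the log2(mean CPM + 1) of the 5 groups, centred over the groups, for the Zscan4 family sum (black) and the 8 genes nearest to it. All rise from OdG WT to EG1 WT in the same order of groups, and Gm13242 is the one that stays high in EG1 KO (39.8 against 44.0 CPM in EG1 WT).

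Other genes of the 2-cell-like state were mostly higher in line 2 and lower in EG1 KO, as the family was. Of 31 such genes listed, 30 had a row and 23 were tested in the OdG table. A gene could pass the filter on low counts through the group where it was high, so shares among tested genes may favour change. Summed over all 30 genes with a row, levels were 10.5 to 13.6 CPM in OdG WT and 65.3 to 66.7 in line 2. They were 18.4 to 21.0 CPM in line 1, 275 to 285 in EG1 WT and 144 to 154 in EG1 KO. In line 2, 21 of the 23 rose, where 30% of all genes tested were called higher, and the median log2 was 2.40 against -0.009 over all genes. Among the tested genes the largest rises were Gm20767 (log2 3.70), Tcstv3 (log2 3.46) and AF067061 (log2 3.42). AF067061 had 1 and 5 counts in WT, 6 and 8 in line 1, and 31 and 36 in line 2. Tcstv3 had 3 and 6, 7 and 10, and 43 and 59 counts in the same order. Neither had enough counts outside line 2 to pass the filter, so their rises are not independent of it. Tcstv3, a gene of the 2-cell embryo, was at 2.62 and 3.31 CPM in line 2 against 0.174 and 0.356 in WT. In line 1, 5 of the 23 rose by edgeR and 2 by DESeq2 (median log2 0.58), which is no larger a share than the 26.8% of all genes called higher there. In EG1 KO, 22 of 25 tested fell by edgeR and 17 by DESeq2, where edgeR called 4.06% of all genes lower (median log2 -0.91 against -0.001 over all genes). The largest falls were in Tdpoz2 (log2 -1.92), Zfp352 (log2 -1.23) and the deubiquitinase gene Usp17le (log2 -1.21). Tdpoz2 was near the floor, at 16 to 22 counts in EG1 WT and 3 to 8 in EG1 KO. It passed the filter through EG1 WT alone, so its fall is not independent of the filter. Usp17le was at 13.6 to 15 CPM in EG1 WT and 5.79 to 6.59 in EG1 KO. Several of these, such as Usp17l, Tcstv and Tdpoz, are also multicopy families whose reads may be shared between copies.

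**Figure D5:**
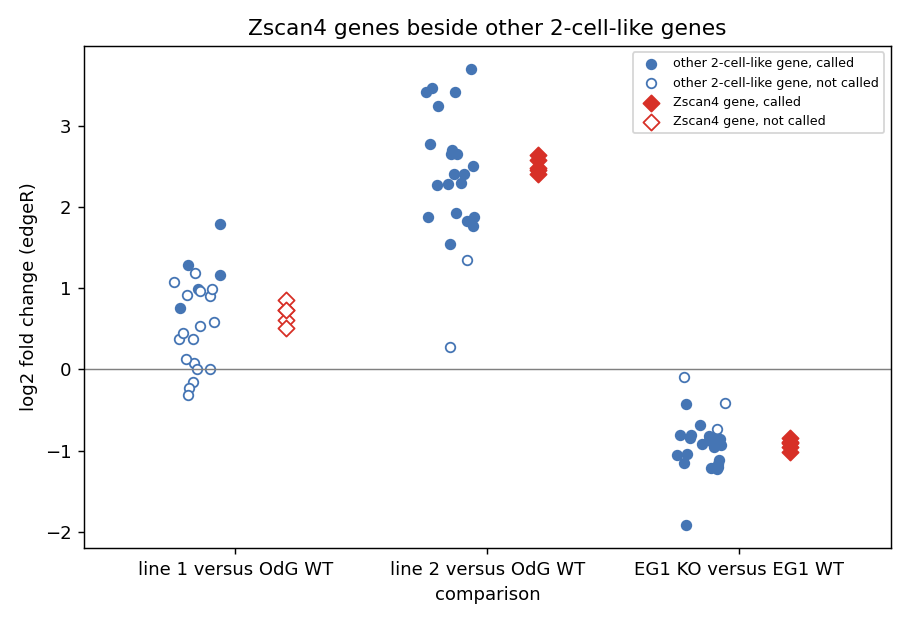
Each point is 1 gene's edgeR log2 fold change in 3 comparisons, diamonds for the Zscan4 genes and circles for the other tested 2-cell-like genes, filled where called at an adjusted p under 0.05. The Zscan4 genes sit inside the range of the other genes in each comparison, with median log2 0.73, 2.48 and -0.91 against 0.58, 2.40 and -0.91.

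Among activators of this state, Dux had 1 and 0 counts in OdG WT, 3 and 3 in line 1, 8 and 20 in line 2, 91, 92 and 88 in EG1 WT, and 38, 44 and 56 in EG1 KO. Its groups followed the order of the Zscan4 sum. The ratio of line 2 to OdG WT, scaled to total counts, was 27.4 (exact binomial 95% interval 4.53 to 1120) and that of line 1 was 5.75 (0.698 to 265), both for counting error only and resting on 1 WT count. Dux was too low for the test in the OdG table. In EG1 KO it fell to 0.538 times WT (log2 -0.89 ± 0.18, edgeR adjusted p = 8e-04). Dppa2, which acts upstream of Dux, was at 37.6 and 38.0 CPM in OdG WT, 67.9 and 64.9 in line 1 and 83.1 and 87.2 in line 2. It rose in both lines (log2 0.81 ± 0.056 and 1.17 ± 0.055, edgeR adjusted p = 2.1e-09 and 7.3e-12). Its partner Dppa4 also rose in both (log2 0.64 ± 0.06 and 0.75 ± 0.059, edgeR adjusted p = 9.1e-08 and 7.2e-09). In EG1 KO, Dppa2 was at log2 -0.11 ± 0.042 (edgeR adjusted p = 0.11) and Dppa4 at -0.04 ± 0.043 (adjusted p = 0.61), and neither passed. Of the 9 activators tested in line 2, 6 rose and 2 fell, where 30% of all genes were called higher and 29.8% lower, the ones that fell being Gata2 (log2 -0.77) and the retinoic acid receptor gene Rara (log2 -0.22). The receptor gene Rarg rose there (log2 1.17). In EG1 KO 4 of 10 fell, against 4.06% of all genes, among them Nelfa (log2 -0.29) and Rara (log2 -0.30).

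Of 31 genes known to hold the 2-cell-like state in check, 19 rose in line 2 and 4 fell (median log2 0.27), against 30% of all genes called higher and 29.8% lower. They include the DNA methyltransferase gene Dnmt3b (log2 1.22), Lin28a (log2 1.06) and the co-repressor gene Trim28 (log2 0.74) among those that rose and Suv39h1 (log2 -0.41), E2f6 (log2 -0.28) and Mga (log2 -0.22) among those that fell. In line 1, 18 rose and 4 fell, against 26.8% and 26.1% of all genes. In EG1 KO 4 of 31 rose, against 3.6% of all genes, among them Lin28a (log2 0.45), Dnmt3b (log2 0.29) and Zfp42 (log2 0.14), with a median log2 of 0.02.

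Of 18 telomere protein genes, 8 rose and 4 fell in line 2 by edgeR (median log2 0.17), where 30% of all genes were called higher and 29.8% lower. DESeq2 called 5 of the 18 higher and 4 lower there. The telomerase RNA-binding protein genes Nhp2 (log2 0.62) and Gar1 (log2 0.48) and the helicase gene Rtel1 (log2 0.59) were higher and Dkc1 (log2 -0.44), Terf1 (log2 -0.28) and Ctc1 (log2 -0.28) lower. In EG1 KO, edgeR called 0 of the 18 and DESeq2 called 0, while 3 had an unadjusted p under 0.05 by edgeR, 1 higher and 2 lower. Of 11 meiotic recombination genes, 4 rose and 2 fell in line 2, against the same 30% and 29.8% of all genes, with Sycp1 (log2 2.23), Tex11 (log2 1.43) and Hormad1 (log2 0.84) higher and Msh4 (log2 -0.97) and Dmc1 (log2 -0.68) lower, and 7 fell in line 1, against 26.1% of all genes (median log2 -0.70). In EG1 KO 1 of the 11 was called, Dmc1 (log2 -0.25), against 4.06% of all genes called lower. Among 19 other genes of the ZSCAN and ZKSCAN type, 3 rose and 7 fell in line 2 by edgeR, against 30% and 29.8% of all genes, and the median log2 was -0.05. DESeq2 called 1 of the 19 higher and 3 lower there. Zscan10, an ESC factor, was the largest rise (log2 0.58), and Zscan2 (log2 0.45) and Zscan29 (log2 0.26) followed, while Zkscan14 (log2 -0.57), Zscan25 (log2 -0.50) and Zkscan3 (log2 -0.31) fell. In EG1 KO edgeR called 1 of the 19, Zscan10 (log2 0.13), against 3.6% of all genes called higher, and DESeq2 called 0. In EG1 WT versus OdG WT, 5 of the 19 were higher and 8 lower, against 35% and 35.4% of all genes, with a median log2 of -0.08, against 4.97 for the 5 Zscan4 members.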

How the data were processed

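Libraries were made from Trizol-extracted RNA with a NEBNext Ultra kit, per the labels' protocols. Upstream, the tools listed were HISAT2 2.1.0 and featureCounts 1.6.4 on mm10, with CASAVA and DESeq2, per the submitters' processing notes. Annotation, strand and multi-mapping settings were not given in the sources used here. Raw counts were deposited by the authors per gene symbol, in 2 tables, and 0 columns were left unmatched to samples. Counts were tested with edgeR 4.0.16 (R 4.3.3): filterByExpr, TMM scaling, 1 mean per group and the quasi-likelihood test, with Benjamini-Hochberg adjustment over 14413 (OdG), 14016 (EG1) or 14977 (both) genes, two-sided, called under 0.05. SE is the log2 fold change divided by the root of F. For the family sum, the 5 rows were replaced by 1, and its fold carries no test. DESeq2 1.42.0, RLE scaling, no filter, a replicate block, left-out libraries and other sums were alternatives. The fit was tested on simulated data. Members and lists were chosen with earlier results of these data known. Named genes were all members, the 8 nearest patterns, and up to 3 called genes per direction and list in line 2 and EG1 KO. Upstream sequences are from RefSeq and transcripts from GENCODE M21, compared with Biopython 1.88. No libraries of 1 group matched within sampling noise (chi-square over degrees of freedom, 1.81 to 3.7).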

Additional observations from a re-analysis of the deposited data

Results flagged for a closer look

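The effect of Etl4 KO on the Zscan4 genes differed between the EG1 and OdG lines measured, by the interaction test. That test uses the spread between libraries of a group, not between KO lines. EG1 minus OdG was log2 -2.69 for Zscan4a, -2.38 for Zscan4b, -2.5 for Zscan4c, -2.38 for Zscan4d and -2.61 for Zscan4f. All 5 had the same sign with either OdG line alone. The 2 OdG KO lines also differed from each other, with line 2 above line 1 by log2 1.91 for Zscan4a, 1.79 for Zscan4b, 1.63 for Zscan4c, 1.94 for Zscan4d and 1.86 for Zscan4f, and every line 2 library above every line 1 library, as for 35.2% of all genes tested. No group has the 4 libraries needed to look for a single library far from the rest.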

How the results depend on the processing

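The number of members called stayed at 5 under every alternative for line 2 versus WT, line 2 versus line 1, EG1 KO versus WT, the interaction and EG1 WT versus OdG WT. For line 1 versus WT it was 0, but 2 without the filter on low counts, 1 in a single fit over all 12 libraries, and 0 to 1 with a library left out. For the mean of both lines it was 5, but 0 with both lines merged into 1 group (sum log2 1.88) and 4 to 5 with a library left out: Zscan4b lost its call without OdG WT replicate 1 (log2 1.2, adjusted p = 0.0595). The family sum kept its direction throughout, and with a library left out its log2 value ran from 0.54 to 0.82 in line 1, 2.39 to 2.67 in line 2, 1.47 to 1.74 in their mean, 1.81 to 1.89 between lines, -0.96 to -0.92 in EG1, -2.67 to -2.39 for the interaction and 4.73 to 5 between WT groups. A group left with 1 library is assumed to vary like the others. The sum moved to 4.61 between WT groups when only Zscan4c, Zscan4d and Zscan4f were summed, and the interaction to -1.60 or -3.45 with line 1 or line 2 alone as the OdG effect, a setting chosen after seeing the data. A sum with other Zscan4 rows was not run, since the symbols starting with Zscan4 in the tables were these 5. Same-numbered replicates did not deviate together (correlations -0.046 to 0.038), so no pairing by number was seen. The check cannot show that samples were unpaired, since with 2 libraries in a group their deviations are mirror images. With the replicate block the number of calls was 0 for line 1 and 5 for line 2, their mean, line 2 versus line 1, EG1 and the interaction, and the block was not run between the WT groups, which come from different tables. The causes were not tested. Depth limits OdG WT most, at 65 and 77 family counts.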
